A study of Mus musculus with 3 samples.

Results

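The autophagy machinery was examined as 35 named genes, from the kinase that starts an autophagosome to the receptors that load it, among 55536 genes in the tables. The genes were taken by symbol from a fixed list of names, each symbol matched 1 gene, and the list sets no threshold on a measured level. RNA came from cytosol of C57BL/6J mouse macrophages derived from bone marrow, a cultured cell common in studies of innate immunity. Before harvest the cells had received lipid A, the bacterial ligand of the receptor Tlr4, at 100 ng/ml over 12 hours, a washout of 12 hours, and 100 ng/ml once more over the last 60 minutes. The data formed 1 group of 3 libraries of ribosome-depleted total RNA, each from 1 µg of RNA, labelled as separate biological replicates under the same donor entry, with sex and age not collected. No untreated or once-treated cells were analysed here, so the values below are levels and not responses, and the nuclear fraction was not analysed here.

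Autophagy encloses part of the cytoplasm in a double membrane and delivers it to the lysosome. The Ulk kinase complex starts the process, a phosphatidylinositol 3-kinase complex marks the membrane with a lipid, and Wipi proteins, Atg2 lipid transfer proteins and the scramblase Atg9a extend it. Ubiquitin-like conjugation enzymes then attach proteins of the Atg8 family to the membrane lipid phosphatidylethanolamine, and cargo receptors bind those proteins. In macrophages the pathway is known for clearing invading bacteria and damaged mitochondria and for restraining inflammasome activity.

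Gene tables held 50807046 expected counts in replicate 1, 53364168 in replicate 2 and 46546422 in replicate 3. All 12 macrophage markers examined stood above 1 TPM (a level per transcript length, scaled to a fixed library total), and their TPM summed to 8969, 6693 and 6933 in the same order. The defining neutrophil gene Ly6g and the T and NK cell genes Cd3g and Klrb1c were listed at 0, while S100a8 at 3.14 TPM and S100a9 at 4.66 TPM, 2 of 8 neutrophil markers, and Cd79b at 1.53 TPM, 1 of 5 B cell markers, were above 1 TPM, and the neutrophil, T and NK cell, B cell and dendritic cell lists each summed to 10.05 TPM or less in every library. The collagen gene Col1a1 stood at 0, 2.53 and 1.28 TPM, with the fibroblast list summing to 0.1, 7 and 3.08 TPM. Replicate 3 stood apart in long RNAs known to be retained in nuclei, with Malat1 at 112, 90.6 and 452 TPM and the list of 5 such RNAs at 124, 98.4 and 486 TPM. The part of these differences in the results below was not tested.

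Nearly the whole machinery was detected, at moderate levels and with a single very abundant gene. Of the 35 genes, 34 stood above 1 TPM and none below it (limma on log2(TPM + 1), Benjamini-Hochberg adjusted p under 0.05 over 20685 genes tested), while Atg16l2 could not be placed. Among all genes tested, 44.5% were called above 1 TPM and 50.4% below it, and 61.0% of protein-coding nuclear genes stood above it. The median of the 35 mean levels was 7.09 TPM, against 3.09 TPM over the 14374 protein-coding nuclear genes with any TPM, and 31 of the 35 exceeded that coding median. By mean level, 1 gene stood over 50 TPM, 9 between 10 and 50, 14 between 5 and 10, and 11 under 5. All the genes together held 566 ± 55.4 TPM (SD, n = 3), of which Gabarap alone took 45.2% ± 1.57. Expected counts per gene and library ran from 103 for Atg16l2 to 22514 for Gabarap. The mean of Atg16l2, 0.85 TPM, lay close to the 1 TPM bar. Its standard error in the level test was 0.0748, against 0.0767 for Wipi1, the lowest gene placed. The part of depth in the missing call was not tested.

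**Figure D1:**
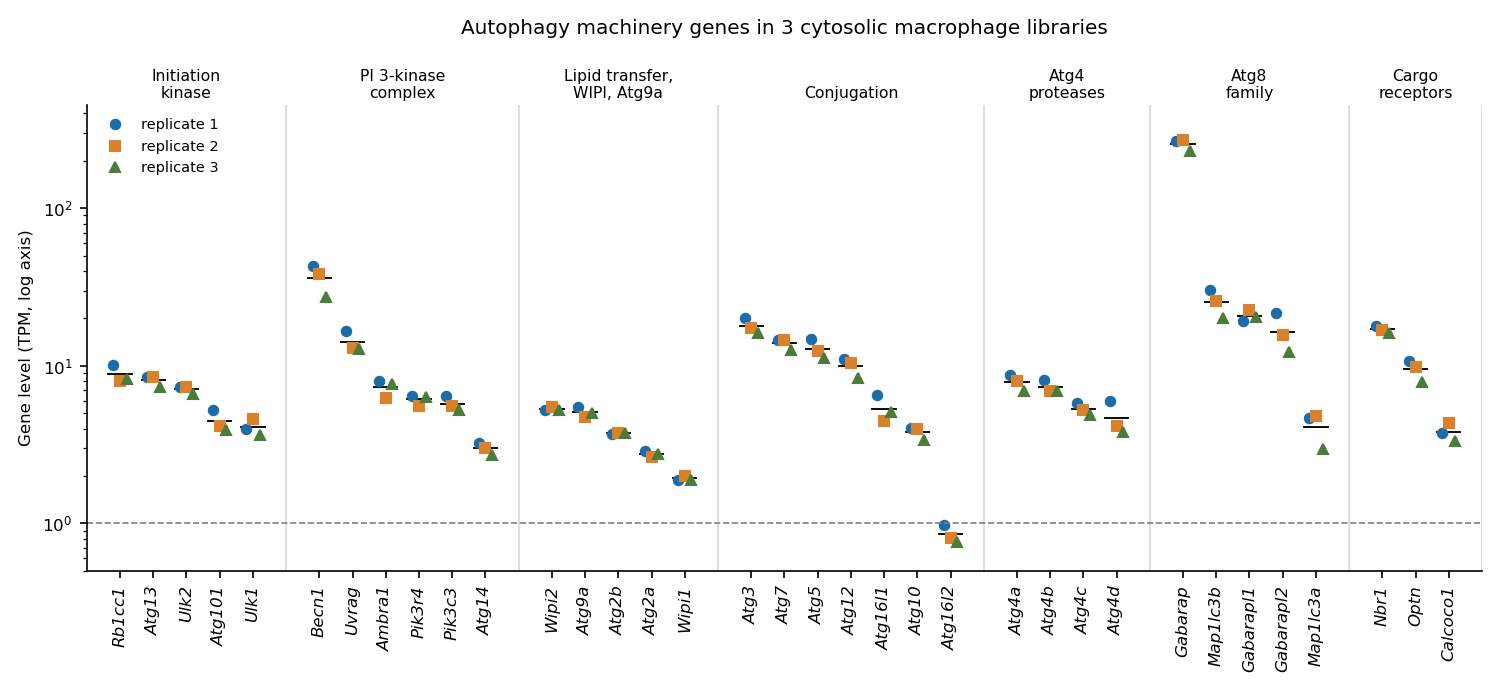
Gene level in TPM (log axis) of the 35 autophagy machinery genes, grouped by their step in the pathway, with 1 symbol per library and a horizontal bar at the mean of 3 libraries. The dashed line marks 1 TPM: Gabarap stood at 256 TPM on average, Atg16l2 at 0.85 TPM, and the other 33 genes between 1.93 and 36.1 TPM.

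Only 6 of the 34 pairs of neighbours in the order of mean level had ranges that did not overlap between libraries. These were Gabarap above Becn1, Atg5 above Atg12, Ulk2 above Pik3r4, Atg2b above Atg14, Atg2a above Wipi1 and Wipi1 above Atg16l2. Becn1 above Map1lc3b and Atg12 above Optn kept their order in 3 of 3 libraries with overlapping ranges, and the other 26 pairs did not keep a fixed order.

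The 5 genes of the kinase complex that starts autophagy had mean levels from 4.06 TPM for Ulk1 to 8.82 TPM for Rb1cc1. Rb1cc1, the large scaffold also called Fip200, stood at 10.1, 8.01 and 8.3 TPM in replicates 1, 2 and 3. Atg13, the adaptor that links the kinase to Rb1cc1, stood at 8.47, 8.5 and 7.36 TPM, and its small partner Atg101 at 5.25, 4.17 and 3.92 TPM. All of these lay well clear of 1 TPM in each library. The related kinases themselves were unequal, with Ulk1 at 3.97, 4.58 and 3.63 TPM and Ulk2 at 7.34, 7.33 and 6.6 TPM. Ulk2 was the more abundant in 3 of 3 libraries, and the log2 ratio of Ulk1 over Ulk2 was -0.81 ± 0.11 (SD, n = 3; exact sign-flip test, two-sided, p = 0.25, the smallest p that 3 libraries allow). The deposited TPM of Ulk1 lay below the authors' own interval for it in every library (for example 3.97 under a lower bound of 4.04 in replicate 1). The same held for Atg16l2, whose lower bounds were 1.22, 1.02 and 1.005 TPM in replicates 1, 2 and 3. Those intervals thus lay above 1 TPM, while the deposited TPM of Atg16l2 lay below it. No other gene of the 35 had a value outside its interval.

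The lipid kinase complex held both the second most abundant gene and a scarce one. Becn1, which encodes the scaffold Beclin 1, stood at 43.0, 38.0 and 27.4 TPM in replicates 1, 2 and 3. Its level rested mostly on transcripts not annotated as protein-coding, described below. The catalytic subunit gene Pik3c3 stood at 6.41, 5.59 and 5.26 TPM, and Pik3r4, which encodes the regulatory subunit Vps15, at 6.47, 5.57 and 6.35 TPM. These obligate partners differed by less than their spread between libraries in the gene tables. Over coding transcripts alone Pik3c3 stood at 5.69 ± 0.493 TPM and Pik3r4 at 3.36 ± 0.365 TPM (SD, n = 3 each), and in a second set of deposited transcript tables, made directly from the reads and summed to genes here (the second tables below), at 2.60 ± 0.194 and 2.08 ± 0.164 TPM, with no overlap between libraries in either. Ambra1, a Beclin 1 binding protein, stood at 8.02, 6.29 and 7.71 TPM. Atg14 and Uvrag encode alternative subunits, of which Atg14 directs the complex to forming autophagosomes and Uvrag to later endosomal steps. Atg14 stood at 3.23, 3.01 and 2.73 TPM and Uvrag at 16.5, 13.1 and 12.9 TPM, with no overlap. The log2 ratio of Atg14 over Uvrag was -2.24 ± 0.12 (SD, n = 3; lower in 3 of 3 libraries; exact sign-flip p = 0.25), and -2.88 in the second tables. Over coding transcripts alone it was -2.20 ± 0.13 (SD, n = 3). The value of -2.88 counts all transcripts, and in that set only 30.6% of Uvrag TPM was coding, against 100% for Atg14. Over all transcripts of that set Uvrag stood at 9.77 ± 0.997 TPM and Atg14 at 1.33 ± 0.141 TPM. The excess of Uvrag over Atg14 is therefore smaller there over coding transcripts than over all of them. Its size over coding transcripts was not tested in that set.

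Genes for membrane growth were the lowest step, with a median of 3.72 ± 0.0404 TPM (SD, n = 3). Wipi2, the phosphoinositide reader that recruits Atg16l1, stood at 5.28, 5.44 and 5.26 TPM in replicates 1, 2 and 3, and its relative Wipi1 at 1.89, 2.01 and 1.89 TPM. Wipi1 was the lowest of the 34 genes above 1 TPM (adjusted p = 0.000254, limma), and stood at 0.92 TPM in the second tables. The log2 ratio of Wipi2 over Wipi1, 1.47 ± 0.02, varied least of the 12 ratios examined. Atg2a stood at 2.87, 2.64 and 2.75 TPM and Atg2b at 3.68, 3.76 and 3.73 TPM. In the gene tables Atg2b thus led the RNA of the lipid transfer genes, with a log2 ratio of Atg2a over Atg2b of -0.44 ± 0.08 (lower in 3 of 3 libraries; exact sign-flip p = 0.25). The ratio was -0.16 both over coding transcripts and in the second tables. The non-coding transcript Atg2b-205 held 18.0% of Atg2b TPM in the first tables and 0 in the second. Atg9a, the scramblase carried on small vesicles, stood at 5.47, 4.73 and 5.04 TPM.

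The 7 genes of conjugation, enzymes together with Atg12, Atg5 and the Atg16l genes, were more abundant, with a median of 9.91 ± 1.4 TPM (SD, n = 3). Atg7, the activating enzyme shared by both conjugation systems, stood at 14.5, 14.6 and 12.6 TPM in replicates 1, 2 and 3. Atg3, the enzyme that passes Atg8 proteins to the lipid, stood at 20.1, 17.3 and 16.2 TPM, and Atg10, its counterpart for Atg12, at 4.03, 4 and 3.37 TPM. Atg3 exceeded Atg10 in every library. Atg12, the ubiquitin-like protein, stood at 11.0, 10.4 and 8.34 TPM, and Atg5, to which it is joined, at 14.9, 12.5 and 11.3 TPM. Atg5 was above Atg12 in 3 of 3 libraries. Atg16l1, which places the Atg12 and Atg5 conjugate on the membrane, stood at 6.48, 4.49 and 5.08 TPM, and its relative Atg16l2 at 0.98, 0.81 and 0.76 TPM from 115, 171 and 103 expected counts. The fitted difference of Atg16l2 from 1 TPM was -0.11 on the log2(TPM + 1) scale with a standard error of 0.0748 (limma, adjusted p = 0.178). The log2 ratio of Atg16l1 over Atg16l2 was 2.65 ± 0.15 (6.26-fold; higher in 3 of 3 libraries; exact sign-flip p = 0.25), 3.83 over coding transcripts alone and 1.77 with a pseudocount of 1 TPM. Atg16l2 was called below 1 TPM in the second tables (adjusted p = 0.00127, limma). Over coding transcripts alone, a setting chosen after seeing the data, it stood at 0.367 ± 0.0839 TPM and was also called below (adjusted p = 2.49e-07, limma). It was called above 1 TPM after TPM was rescaled over protein-coding genes. That change of scale raised log2 TPM of every coding gene by 1.54, 1.79 and 1.86 in replicates 1, 2 and 3.

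The Atg4 proteases trim Atg8 proteins before conjugation and release them from membranes afterwards. Atg4a stood at 8.76, 8.05 and 6.96 TPM, Atg4b at 8.08, 6.89 and 6.95 TPM, Atg4c at 5.8, 5.23 and 4.88 TPM and Atg4d at 5.94, 4.16 and 3.8 TPM in replicates 1, 2 and 3. The 4 genes lay within a narrow band, and the order of Atg4a and Atg4b could not be fixed. Their log2 ratio, Atg4b over Atg4a, was -0.11 ± 0.11 (SD, n = 3) in the gene tables, 0.39 in the second tables and -0.49 over coding transcripts alone. Atg4b exceeded Atg4c by 0.46 ± 0.06 and Atg4d by 0.68 ± 0.22 on the log2 scale, each in 3 of 3 libraries (exact sign-flip p = 0.25 each). Over coding transcripts alone the first of these was 0.074 ± 0.077, so the excess over Atg4c was not kept. The second was 3.81 ± 0.49, with 9.16% of Atg4d TPM in coding transcripts.

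The Atg8 family are small ubiquitin-like proteins in 2 branches, the LC3 genes (Map1lc3a and Map1lc3b) and the Gabarap genes. Each protein is cut by Atg4 just after a glycine, which is then joined to the lipid, so the end of the coding sequence encodes the site that the proteases above cut. The last 33 coding bases, stop codon included, are given for the leading coding transcript of 4 of the genes (GENCODE M21, mm10, all on the plus strand), with the codon of the last glycine in capitals.
Gabarap: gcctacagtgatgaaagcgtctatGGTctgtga
Gabarapl1: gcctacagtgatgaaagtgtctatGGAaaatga
Gabarapl2: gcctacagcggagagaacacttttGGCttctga
Map1lc3a: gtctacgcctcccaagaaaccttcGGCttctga
The 4 stretches lie at chr11:69994492-69994524 for Gabarap, chr6:129541135-129541167 for Gabarapl1, chr8:111952373-111952405 for Gabarapl2 and chr2:155277605-155277637 for Map1lc3a. In Gabarap, Gabarapl1 and Gabarapl2 the glycine was codon 116 of 117 and in Map1lc3a codon 120 of 121, so 1 residue followed it in each of the 4. Gabarap and Gabarapl1 differed at 5 of these 33 bases, and Gabarap and Gabarapl2 at 12.

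The levels of the family members were far apart. Gabarap stood at 266, 270 and 231 TPM in replicates 1, 2 and 3 (chromosome 11, 69991143 to 69994951, mm10), from 18792, 22514 and 17333 expected counts, and its mean lay at the 99.0th percentile of protein-coding nuclear genes. Gabarapl1 stood at 19.4, 22.7 and 20.4 TPM and Gabarapl2 at 21.5, 15.6 and 12.2 TPM. In the LC3 branch, Map1lc3b, whose protein is the usual marker of autophagosomes, stood at 30.3, 25.9 and 20.2 TPM and Map1lc3a at 4.63, 4.77 and 2.95 TPM. No library brought any other family member near Gabarap, and Map1lc3a was the lowest of the 5 in each. The fold of Gabarap over Gabarapl1 was 12.3, over Map1lc3b 10.2 and over Gabarapl2 16.0, and that of Map1lc3b over Map1lc3a was 6.24. Their log2 ratios kept their sign in 3 of 3 libraries (exact sign-flip p = 0.25 each), with SDs of 0.15 to 0.32. Gabarap made up 79.4% ± 1.39 of the family's TPM (SD, n = 3), and 73.7% ± 0.917 in the second tables. There the log2 ratio of Map1lc3b over Gabarap was -2.71, against -3.35 in the gene tables, while over coding transcripts alone Map1lc3b exceeded Map1lc3a 9.41-fold.

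**Figure D2:**
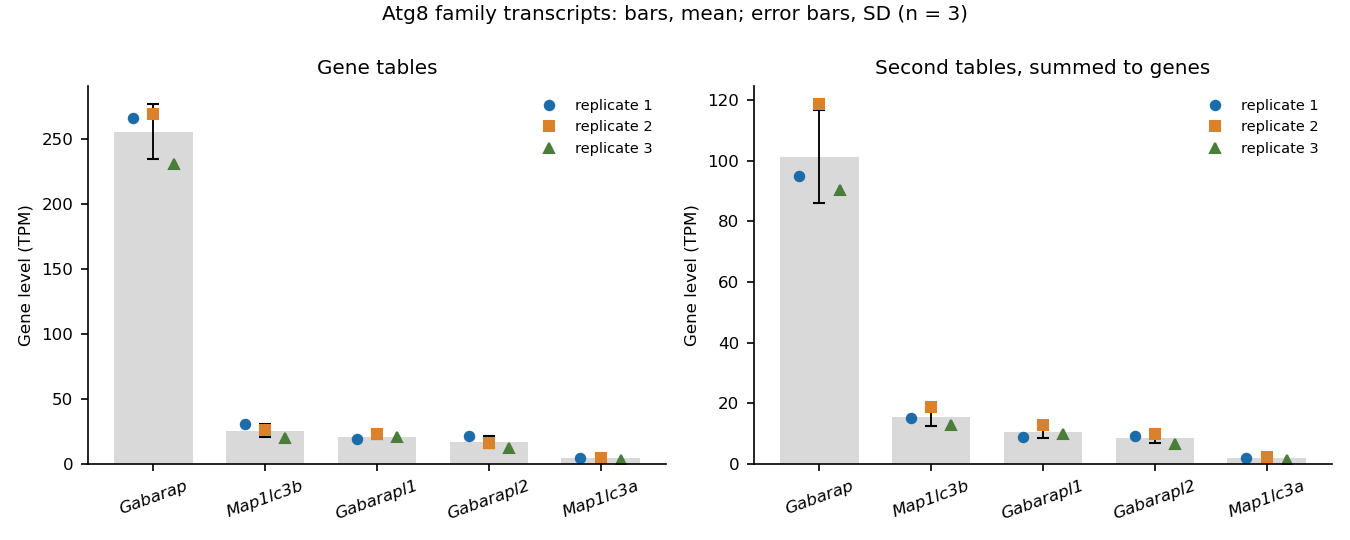
Level in TPM (linear axis from 0) of the 5 Atg8 family genes in the gene tables (left) and in the second transcript tables summed to genes (right), with bars at the mean, error bars of 1 SD over 3 libraries and 1 symbol per library. Gabarap exceeded every other member in each library of both, and stood at 256 TPM on average in the gene tables.

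Among the cargo receptors, which bind both cargo and Atg8 proteins, Nbr1 stood at 18.0, 16.9 and 16.3 TPM in replicates 1, 2 and 3. Optn, a receptor for ubiquitin-coated bacteria and mitochondria, stood at 10.8, 9.83 and 7.91 TPM. Calcoco1, a receptor for endoplasmic reticulum and Golgi membrane, stood at 3.77, 4.32 and 3.31 TPM. The order Nbr1, Optn, Calcoco1 held in each library with no overlap. Seen by step, the median percentile among coding genes was 85.3 for the Atg8 family, 72.2 for conjugation, 71.4 for these receptors, 65.8 for the initiation kinase, 64.6 for the lipid kinase complex, 63.2 for the Atg4 proteases and 53.4 for membrane growth.

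The transcripts behind these levels were mostly coding. The first transcript tables list 252 transcripts of the 35 genes, of which 110 are annotated as protein-coding, 81 as retaining an intron and 23 as targets of nonsense-mediated decay, the degradation of RNAs with early stop codons. Coding transcripts carried at least 90% of the gene's TPM in 23 of the 35 genes, and the median coding share was 97.7%, against 98.4% over 9167 coding genes at 1 TPM or more, 74.0% of which reached 90%. The share was under 50% for Becn1, Atg4d and Atg16l2 (4.79% of those 9167 genes), and in the second tables also for Uvrag. The leading transcript was the same in both sets of tables for 33 of the 35, the exceptions being Rb1cc1 and Uvrag.

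**Figure D3:**
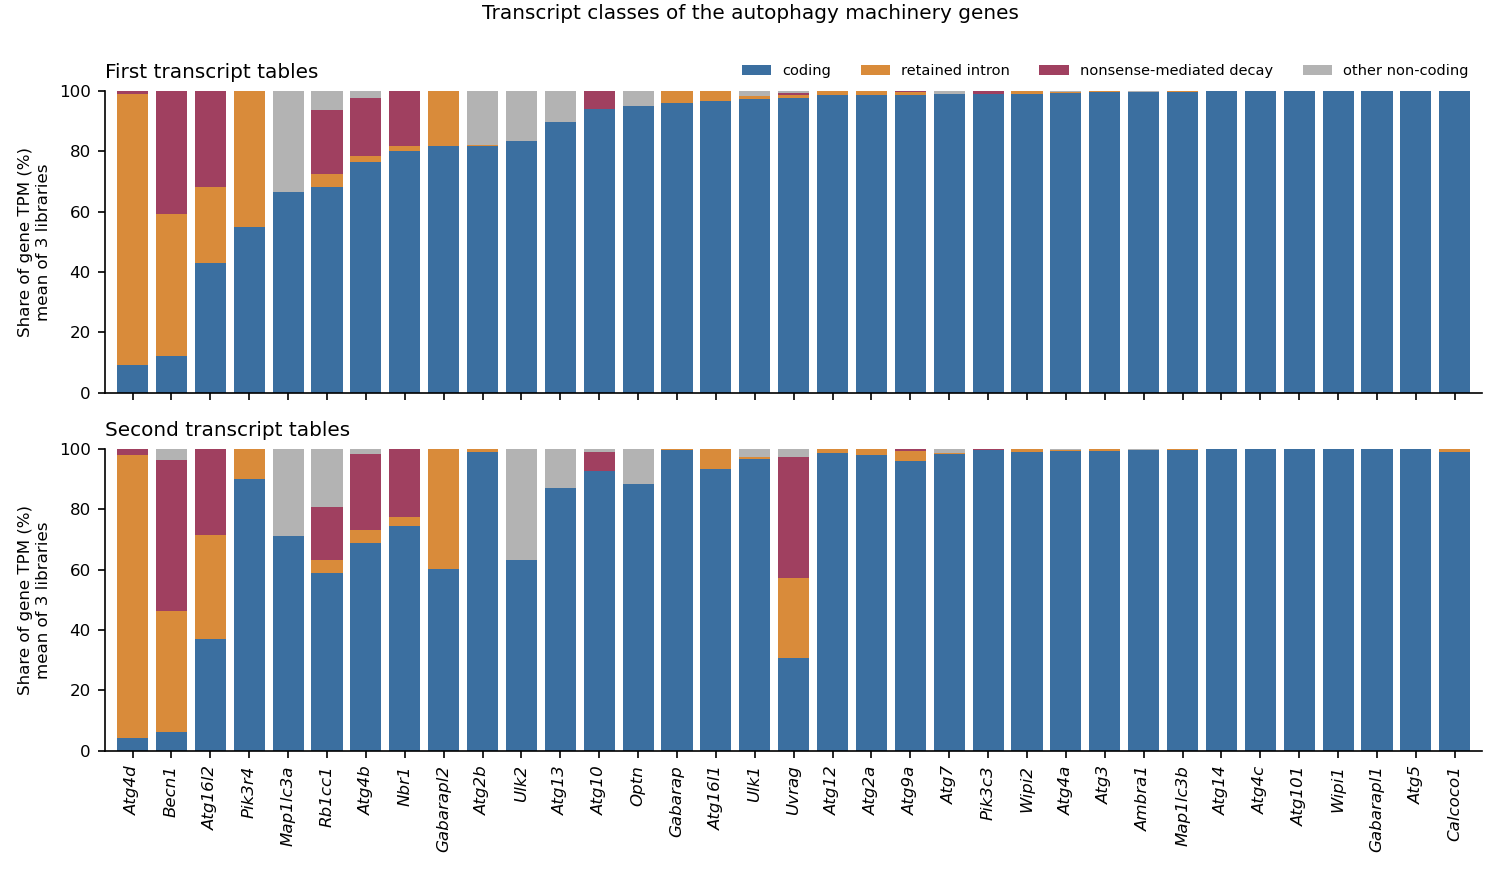
Share of each gene's TPM (%, mean of 3 libraries) in coding, retained-intron, nonsense-mediated decay and other non-coding transcripts, in the first transcript tables (top) and the second (bottom), with genes ordered by coding share in the first. Atg4d, Becn1 and Atg16l2 had coding shares under 50% in both, while that of Uvrag was 97.7% in the first and 30.6% in the second.

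For Becn1 the coding share of TPM was 11.1%, 12.7% and 13.3% in replicates 1, 2 and 3, which left 4.40 ± 0.653 coding TPM (SD, n = 3) and put the gene at position 24 among the 35 by coding TPM, against position 2 by all transcripts. Its leading transcript, Becn1-211, is a fragment of 487 bases annotated as retaining an intron and held 44.7% ± 7.5 of the TPM, but only 9.86% ± 2.44 of the gene's expected counts. Of its 487 bases, 482 lie within exons of the coding transcript Becn1-205 and 5 outside them. Becn1-201, annotated as a decay target although it is linked to a RefSeq messenger RNA, held 28.2% ± 3.97 of the TPM. It stood at 10.2 ± 2.65 TPM, with 43.8% ± 6.94 of the gene's expected counts. The coding TPM and position 24 above leave Becn1-201 out because of that annotation. Of its 2123 bases, 2055 lie within exons of Becn1-205. Most of the bases of these transcripts are therefore shared with the coding one. Reads could be divided among them only by estimation, so the coding share of Becn1 is uncertain. By expected counts the coding share was 34.96% ± 7.75, above the share by TPM, which divides by the length of the 4365-base coding transcript. Becn1 also shares 43.9% of its exon bases with Cntd1 on the opposite strand, which stood at 0.0367 TPM on average.

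Atg4d had the smallest coding share, at 7.08%, 7.21% and 13.2% in replicates 1, 2 and 3. Its coding transcript stood at 0.407 ± 0.101 TPM (SD, n = 3), below 1 TPM (adjusted p = 1.56e-06, limma, over coding transcripts, a setting chosen after seeing the data). By expected counts the coding share was 28.9% ± 7.21. Atg4d-203 held 58.7% ± 2.62 of the TPM and Atg4d-205 30.7% ± 5.43, and both are annotated as retaining an intron. Atg4d-203 contains the whole of intron 4 of the coding transcript, 77 bases at chr9:21268528-21268604 (mm10, plus strand), and 125 bases of intron 5. Its letters across the start of intron 4, at chr9:21268513-21268542, are shown because they distinguish it from the coding transcript, with the last 15 coding bases in lower case and the first 15 intron bases in capitals.
Atg4d-203: ggcacacatcctcagGTGAGACCCATTGCA
Kri1, a gene on the opposite strand at 8.04 TPM, overlaps 19.3% of the exon bases of Atg4d, with 1405 bases of the coding transcript Atg4d-201, 289 bases of Atg4d-203 and none of Atg4d-205. The strand setting of the counting is not given in the sources used here, and if strand was not used, reads of the overlapping stretch could not be told apart between the 2 genes, so the coding level of Atg4d is uncertain. Atg4d-205, which lies clear of Kri1, alone stood at 1.46 ± 0.607 TPM.

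Pik3r4 and Uvrag show how far transcript shares depended on the tables. Retained-intron transcripts held 45.2% of Pik3r4 TPM in the first tables, where Pik3r4-211 stood at 33.6% ± 0.866 and Pik3r4-204 at 11.0% ± 1.17, while the second tables gave a coding share of 89.98%. The start of intron 15 as it appears in Pik3r4-204, at chr9:105678306-105678335 (mm10, plus strand), is shown in the same form, coding bases in lower case and intron bases in capitals.
Pik3r4-204: gctggctgtgcatagGTAAGCCAGCCGCCG
Uvrag was 97.7% ± 2.15 coding in the first tables and 30.6% in the second, where the decay target Uvrag-208 led with 39.5%. For Gabarap, the transcripts Gabarap-201 and Gabarap-202, both coding, held 62.9% ± 3.6 and 33.2% ± 2.89, so coding transcripts alone still gave 246 ± 21.7 TPM. Gabarapl2 was 64.5% coding in replicate 1 and 92.1% and 88.4% in replicates 2 and 3, with the retained-intron transcript Gabarapl2-203 at 7.57, 1.24 and 1.41 TPM. Replicate 1 carried most of that transcript in the first tables. In the second tables its share of the gene was 44.8%, 38.6% and 34.9% in replicates 1, 2 and 3, with no library far from the others, and the coding share was 60.2% ± 4.85. A retained-intron share above 0 was found in the first tables for 21 of the 35 genes, and it was highest in replicate 3, where nuclear RNAs were highest, for 13 of them (61.9%) and lowest there for 3, Ulk1, Becn1 and Atg4d. The share of Rb1cc1 was 0.493%, 0.875% and 11.8% and that of Atg16l1 1.08%, 2.00% and 6.89% in replicates 1, 2 and 3. Over 5236 coding genes at 1 TPM or more with such a share, 60.4% were highest in replicate 3, so the count among the 35 lay near that of coding genes as a whole. In the second tables it was highest in replicate 3 for 12 of 22 genes (54.5%), against 67.8% of 5481 coding genes.

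Near copies could draw reads from 5 of the genes, those with another gene at 95% or more identity over at least 200 bases. The processed pseudogene Gm6055 resembles Map1lc3b at 99.7% identity over 378 bases and stood at 1.23 TPM. Atg4a-ps, at 0.07 TPM, matched Atg4a, and 3 pseudogenes of Gabarapl2 and 1 of Rb1cc1 stood at 0.127 TPM or less. The matches of Uvrag were short stretches of 345 bases or less shared with 15 other genes, of which Gga3 at 6.05 TPM, Klhl20 at 4.6 TPM, Mettl6 at 9.23 TPM, Tsc2 at 7.32 TPM and Txndc16 at 5.23 TPM were expressed, and the other 10 stood at 0.0533 TPM or less. Exons of 11 of the 35 genes overlap those of another gene, and apart from Kri1 the partners above 1 TPM on average were Fchsd2, over 25 bases of Atg16l2, Gskip, over 383 bases of Atg2b, and Ankzf1, over 46 bases of Atg9a. Reads divided between such copies and neighbours leave the levels of these genes uncertain to that extent.

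The 3 libraries were next compared for spread beyond counting error. Over expected counts scaled by TMM, a chi-square test with 2 degrees of freedom called 27 of the 35 genes (77.1%) as varying beyond sampling noise, against 67% of the 13075 genes tested and 74.5% of the 9883 genes at or above the lowest of the 35 in CPM (expected counts scaled to a common library total). The share among the 35 lay near that of the 9883. The 8 genes not called were Nbr1, Atg4b, Atg101, Atg2a, Atg9a, Pik3c3, Atg4c and Atg14, with adjusted p from 0.0621 to 0.67, values that do not show an absence of variation. The spread itself was small, with a median coefficient of variation of 8.36% (range 2.39% to 24.2%), against 11.3% over all genes tested and 9.18% over the 9883. The highest library exceeded the lowest by a median of 1.17-fold, by 1.2-fold or more in 14 genes and by 1.5-fold or more in 1. In bulk RNA, fewer cells that express a gene and less RNA of it per cell cannot be told apart.

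Map1lc3a varied most, at 5.83, 6.49 and 3.96 CPM in replicates 1, 2 and 3 (1.64-fold; chi-square adjusted p = 4.48e-07), from 286, 350 and 189 expected counts. Replicate 3 held the low value. Atg16l2 followed at 2.35, 3.17 and 2.16 CPM and Calcoco1 at 14.2, 18.9 and 14.9 CPM, both highest in replicate 2. At the other end, Nbr1 stood at 105, 110 and 107 CPM and Atg14 at 16.0, 16.1 and 15.4 CPM. Gabarap, with 383, 418 and 363 CPM, differed by only 1.15-fold and was still called (adjusted p = 1.67e-43), because its counts are large. The Atg8 genes Map1lc3a, Map1lc3b, Gabarap and Gabarapl2 were each lowest in replicate 3, while Gabarapl1 was lowest in replicate 1.

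**Figure D4:**
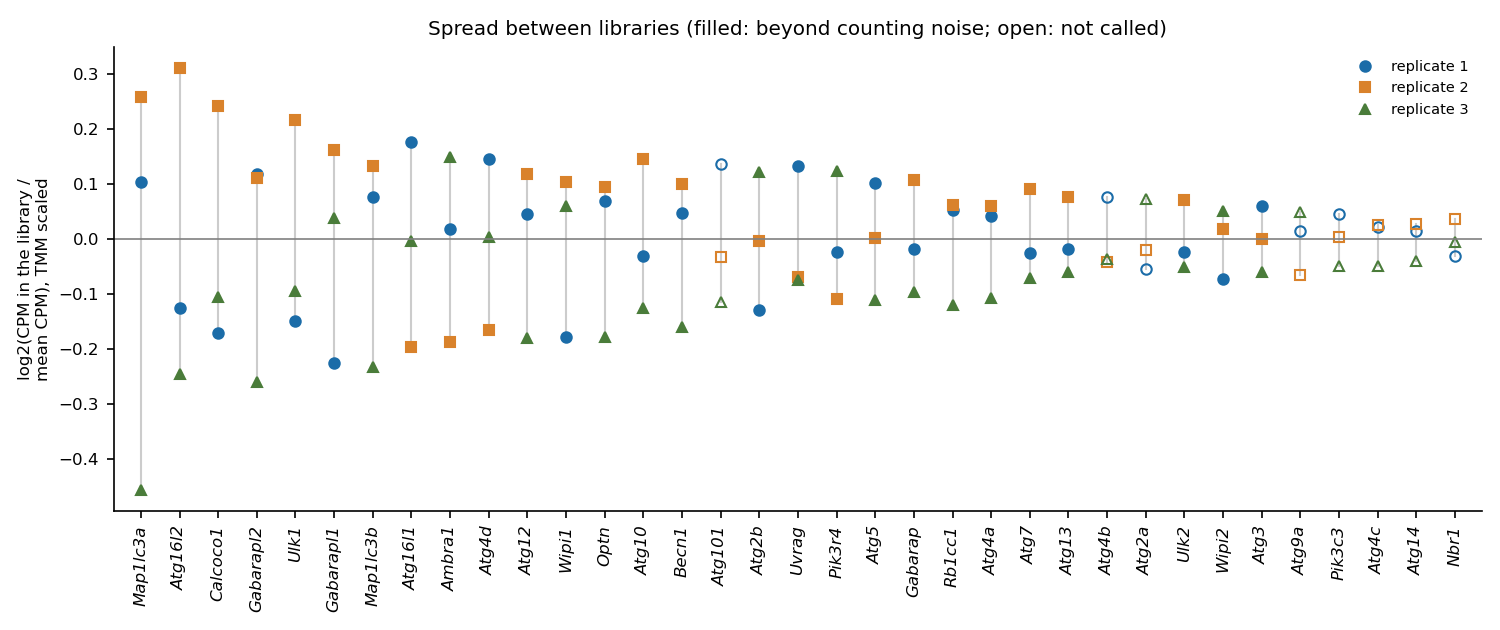
Deviation of each library from the gene's mean, as log2 of CPM over mean CPM after TMM scaling, for the 35 genes ordered by coefficient of variation, with filled symbols for the 27 called beyond counting noise and open symbols for the 8 not called. Replicate 2 was the highest library for 20 of the 35 genes and replicate 3 the lowest for 21, against 36.0% and 36.1% of all genes tested, and Map1lc3a spread most.

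Which library was highest depended on the scaling. By TPM as deposited, 25 of the 35 genes were highest in replicate 1, 10 in replicate 2 and none in replicate 3. After TMM scaling of counts the numbers were 9, 20 and 6, the same as with DESeq2 size factors, and after rescaling TPM over coding genes 7, 19 and 9. Coding genes held 34.5%, 29.0% and 27.5% of deposited TPM in replicates 1, 2 and 3, values that move with that order. Under TMM scaling 21 genes were lowest in replicate 3, against 11 after rescaling. Replicate 2 was the highest library for more of the genes than replicate 3 under each of these scalings. Of all genes tested, 33.8%, 36.0% and 30.2% were highest in replicates 1, 2 and 3 by TMM-scaled CPM, and 36.1% were lowest in replicate 3.

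Other genes of the pathway were read from lists of the same breadth, as levels. The counts above 1 TPM for each list stand beside 44.5% of all genes tested and 61.0% of protein-coding nuclear genes. Of 16 further cargo receptors 15 stood above 1 TPM and 1 below it (limma, as above), led by Sqstm1, the receptor p62, at 395, 555 and 284 TPM, followed by the ferritin receptor Ncoa4 at 110 ± 22.3 TPM (SD, n = 3) and the endoplasmic reticulum receptor Rtn3 at 75.3 ± 14.0, with the glycogen receptor Stbd1 lowest at 0.0533 ± 0.0153. Sqstm1 was the only receptor in these lists above Gabarap, and it exceeded Gabarap in 3 of 3 libraries. Among 22 upstream kinases and partners of mTORC1 and AMPK, the nutrient and energy sensors that act on Ulk1, 18 stood above 1 TPM and 3 below it. The lysosomal anchor Lamtor1 was highest at 78.0 ± 5.21 TPM, then the Rag GTPase gene Rragc at 52.0 ± 9.19 and the kinase Tbk1, which phosphorylates Optn, at 26.3 ± 3.88, with the AMPK catalytic subunit gene Prkaa2 lowest at 0.0467 ± 0.0252.

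All 21 further genes of autophagosome formation except the Beclin 1 inhibitor Bcl2, at 0.937 ± 0.163 TPM (SD, n = 3) and not placed, stood above 1 TPM, led by Sh3glb1, a Beclin 1 partner through Uvrag, at 122 ± 23.3, the scramblase Vmp1 at 39.5 ± 7.1 and Tecpr1 at 26.6 ± 3.97. All 15 genes of lysosome fusion found by symbol stood above it, led by the interferon-induced GTPase Irgm1 at 197 ± 56.6, the small GTPase Rab7 at 134 ± 11.9 and the SNARE Vamp8 at 110 ± 31.6, with the Rab7 effector gene Rilp lowest at 1.69 ± 0.253. Of 9 transcription factors and their regulators, 8 stood above 1 TPM. These were Tfe3 at 32.2 ± 2.5 TPM, Fnip1 at 17.3 ± 2.48, Mitf at 16.2 ± 2.95, Tfec at 13.8 ± 4.81, Flcn at 11.8 ± 0.882, Foxo3 at 10.6 ± 0.374, Tfeb at 8.35 ± 0.773 and Zkscan3 at 3.36 ± 0.587. Foxo1 at 0.967 ± 0.0404 was not placed. Tfeb, the best known activator of lysosome and autophagy genes, was below its relatives Tfe3 and Mitf in each library. The noise test called 13 of 15 receptors tested, 18 of 22 upstream genes, 15 of 21 formation genes, 12 of 15 fusion genes and 7 of 9 regulators. The shares beside these were the same 67% of all genes tested and 74.5% of the 9883 genes above.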

How the data were processed

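Total RNA was sequenced from 3 libraries of 1 group. The authors deposited expected counts for genes and transcripts, made from alignments to transcripts (mm10, GENCODE M21), per the file headers and the accompanying text. The authors also gave TPM, scaled by effective length, with an interval per gene and library whose level is not stated, per the file headers. A second set of transcript tables with estimated counts and TPM was made by the authors directly from the reads, per the same text, and was summed to genes here. Which aligner, quantification tool, version or strand option was used is not given in the sources used here. Entries that are no genes (26345, with 0.378%, 0.0931% and 0.0772% of expected counts in replicates 1, 2 and 3) were left out of library sizes and tests.

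Members and lists were chosen with earlier results of these data known. All 35 members were named, with the 3 highest genes and the lowest gene of each pathway list. Every gene of the list of transcription factors and their regulators was also named. The symbol Vamp7 was not analysed here. The level test used limma 3.58.1 (R 4.3.3), with the mean of log2(TPM + 1) set against its value at 1 TPM, a mean-variance trend and robust moderation, over every gene with TPM in any library, adjusted over all of them at 0.05. The pseudocount of 1 TPM compresses differences among low genes. Spread between libraries was tested by chi-square on expected counts rounded to whole numbers, with TMM effective sizes from edgeR 4.0.16 (factors 0.965, 1.01 and 1.03), where a gene had at least 30 counts in sum. TMM was used because non-coding RNAs took unequal shares of the libraries. CPM here is the expected count scaled to the effective library size. Paralogue ratios (12 pairs) were log2 TPM ratios within a library with an exact sign-flip test, and 3 libraries cannot go below p = 0.25. Both tests across genes were tested on simulated data. Alternatives were other pseudocounts, levels, count minimums and scalings, the second tables, coding transcripts alone and each replicate left out. Coding ends and introns were read from GENCODE M21 transcripts, and the coding end of Map1lc3b is not reported here. The labels name the same donor entry for all libraries, so the spread between these samples may be technical. The chi-square test set that spread against counting error. The limma test set a mean against a fixed level, with an error estimated from that spread. Computation used pandas 2.3.3 and scipy 1.17.1, and figures matplotlib 3.10.9.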

Additional observations from a re-analysis of the deposited data

How the results depend on the processing

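No paired analysis was possible because the libraries form 1 group. The 34 genes called above 1 TPM were 34 under a pseudocount of 0.1, after dropping genes under a mean count of 10, or with any replicate left out, 33 in the second tables, 35 after rescaling and 33 over coding transcripts (added after seeing the data). At a level of 5 TPM 19 were called above it, and 11 genes then had differences below 0 on the log2 scale, Atg16l2, below 0 already, at -1.70 and 10 whose sign changed: Atg4d -0.11, Atg101 -0.15, Ulk1 -0.25, Map1lc3a -0.25, Atg10 -0.32, Calcoco1 -0.33, Atg2b -0.35, Atg14 -0.59, Atg2a -0.68 and Wipi1 -1.03, as the higher bar implies. Differences from 1 TPM also changed sign for Wipi1 in the second tables (-0.064), for Atg16l2 after rescaling (0.93) and for Atg4d over coding transcripts (-0.51). The second tables put genes at 1 TPM or more at a median of 0.459 times their first TPM.

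The 27 genes varying beyond noise were 28 with total counts or DESeq2 1.42.0 size factors, 27 at 100 counts, 25 with no minimum, 31 in the second tables, and 18 to 22 with a replicate left out. Without replicate 1 it was 22, without replicate 2 it was 19 and without replicate 3 it was 18. Ambra1, Atg2b, Atg12, Atg16l1, Map1lc3b, Gabarap and Gabarapl1 were called with each left out. Calls lost were those of Uvrag, Wipi1, Wipi2, Atg3 and Atg4d without replicate 1; Ulk1, Ulk2, Atg13, Wipi1, Atg4d, Atg7, Atg10, Atg16l2 and Calcoco1 without replicate 2; and Rb1cc1, Becn1, Pik3r4, Atg3, Atg4a, Atg5, Atg10, Map1lc3a, Gabarapl2 and Optn without replicate 3.

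Log2 ratios in the second tables were 3.08 for Map1lc3b over Map1lc3a, 3.29 for Gabarap over Gabarapl1, -3.58 for Gabarapl2 over Gabarap, -2.71 for Map1lc3b over Gabarap, -0.96 for Ulk1 over Ulk2, -0.16 for Atg2a over Atg2b, 0.39 for Atg4b over Atg4a (sign changed), 0.95 for Atg4b over Atg4c, 0.98 for Atg4b over Atg4d, 2.19 for Atg16l1 over Atg16l2, 1.64 for Wipi2 over Wipi1 and -2.88 for Atg14 over Uvrag. With a pseudocount of 1 TPM they were 2.37 for Map1lc3b over Map1lc3a, -0.68 for Ulk1 over Ulk2, -0.33 for Atg2a over Atg2b, 0.40 for Atg4b over Atg4c, 1.77 for Atg16l1 over Atg16l2, 1.11 for Wipi2 over Wipi1 and -1.92 for Atg14 over Uvrag. Over coding transcripts they were 3.23 for Map1lc3b over Map1lc3a, -0.59 for Ulk1 over Ulk2, -0.16 for Atg2a over Atg2b, -0.49 for Atg4b over Atg4a, 0.074 for Atg4b over Atg4c, 3.81 for Atg4b over Atg4d and 3.83 for Atg16l1 over Atg16l2. Median percentiles in the second tables were 71.7 for initiation, 68.3 for the lipid kinase, 56.4 for membrane growth, 75.3 for conjugation, 68.5 for Atg4, 87.8 for Atg8 and 76.4 for receptors. The cause of these differences was not tested. Atg16l2 had the lowest summed count of the genes examined, at 389, and the part of depth in its results was not tested.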
